A study of Mus musculus with 8 samples.

Results

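The genes described here are 9 parts of the interferon-gamma signalling pathway, out of 23478 genes in a table of raw read counts: the receptor chains Ifngr1 and Ifngr2, the Janus kinases Jak1 and Jak2, the transcription factors Stat2 and Stat3, and the feedback inhibitors Socs1, Socs3 and Ptpn2. The list of genes was chosen with earlier results of these data known. Their rows were found by gene symbol, and all 9 passed the filter on low counts. RNA was sequenced from 8 mouse libraries in 4 groups of 2. Disseminated cancer cells (DCC) came from bone marrow of mice whose breast cancers metastasise spontaneously, and were either left as controls or treated with interferon-gamma. Cancer cells of an early mammary tumour lesion carry neuT in their title, which names an activated rat Her2 transgene. TUBO, an established line that was cloned from a mammary carcinoma of such a mouse, formed the remaining group. The early lesion and TUBO were untreated, and the labels give the genotype of all 4 groups as WT. The sources used here do not give the transgene's promoter, the age of the mice, whether animals were pooled, or how much interferon-gamma was added and for how long. The labels call the 2 libraries of a group biological replicates, without saying whether they came from separate animals, so the p-values measure the spread between these libraries.

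Interferon-gamma binds Ifngr1, which carries Jak1, and brings in Ifngr2, which carries Jak2. The kinases phosphorylate each other and the receptor, and STAT proteins that dock there are phosphorylated, pair up and enter the nucleus to switch on genes with gamma-activated sites. Stat2 works mainly with Irf9 downstream of type I and type III interferons, and Stat3 mainly downstream of the interleukin-6 family. Socs1 and Socs3 are induced by STATs and block the kinases, while Ptpn2 is a phosphatase that removes phosphate from Jak1 and STATs.

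Reads assigned to genes numbered 15432210 to 30168475 per library. The table's closing lines, which hold reads assigned to no gene, took 63.7% of all reads in replicate 1 of the DCC controls and 57.2% in replicate 2 of the early lesion, against 35.2 to 45.1% in the other 6 libraries. Calls and counts that rest on these 2 libraries are also given without both of them, and levels are given for each library. The labelled cell types were checked against marker genes. The summed level of 12 mammary epithelial markers was 3670 to 6810 counts per 1000000 (CPM) in the early lesion and TUBO, 3.96 and 4.63 CPM in the DCC controls, and 0.367 and 0.501 CPM in the treated DCC, where 7 of the 12, Epcam among them, had no count. The summed level of 9 fibroblast and stroma markers was 7460 and 8590 CPM in the DCC controls and 713 and 1170 CPM after treatment, against 8.43 to 18.0 CPM in the early lesion and TUBO. The markers thus go against an epithelial identity for the libraries labelled DCC, and the name is kept here as the label's. With interferon-gamma, 16 macrophage and monocyte markers summed to 1630 and 1200 CPM, against 139 and 136 CPM in the controls, and 9 leukocyte markers to 569 and 521 CPM against 71.4 and 63.7 CPM. Of those tested, 11 of 15 macrophage and monocyte markers and 5 of 9 leukocyte markers rose, and Marco had no count in the treated libraries. Fcgr1, among the macrophage markers that rose, is also counted below as a direct target of interferon-gamma. Of 8 fibroblast and stroma markers tested 4 fell (Col3a1, Col1a1, Col1a2 and Lum), Pdgfra rose by 1.84 ± 0.29 (adjusted p = 0.00188) and 3 were not called. Of 7 osteoblast markers Ibsp, Alpl and Runx2 fell and 4 were not called, with sums of 15800 and 21500 CPM in the controls and 10100 and 25100 CPM after treatment. T and NK cell markers summed to at most 3.47 CPM in every library. In the early lesion the 9 leukocyte markers summed to 911 and 824 CPM. They summed to 603 and 541 CPM in TUBO, where 6 of them had no count. For macrophages and monocytes the sums were 102 and 111 CPM in the early lesion and 80.2 and 114 CPM in TUBO. Osteoblast sums were 4430 and 3570 CPM in the early lesion and 3470 and 3930 CPM in TUBO. The leukocyte, macrophage and osteoblast sums are thus not specific to those cells. Single markers were also compared between the DCC controls and the early lesion, and then TUBO. Of 15 macrophage and monocyte markers tested, 10 and 11 were higher in the DCC controls, and Cd14 was lower in both. Of 9 leukocyte markers 5 and 6 were higher and 1 and 2 lower. Of 7 osteoblast markers 6 were higher in each and 0 lower. Among all genes 19.1% and 22.1% were called higher, and 18.7% and 19.9% lower. The part of these cell types in the results below was not tested, and in such bulk samples fewer cells of a type and less RNA per cell cannot be told apart.

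Promoters of 8 of the 9 genes had an entry in the RefSeq table (GRCm38.p6), and they were searched on both strands from 250 bases before to 50 bases after the start. The sequences of Socs1, Stat2 and Socs3 are shown because these 3 genes had the largest rises with interferon-gamma and are also the 3 in which an interferon or STAT motif was found. Capitals mark the matched bases, and each sequence is read 5′ to 3′ on the gene's own strand. The first pair are the whole 250 bases before the start (Socs1 at chr16:10785537-10785786, minus strand, and Stat2 at chr10:128270248-128270497, plus strand), and neither overlaps an annotated exon. For Socs3 only the 29 bases around the match are shown (chr11:117969502-117969530, minus strand). The 250 bases before the start that hold them overlap an annotated Socs3 exon.
Socs1: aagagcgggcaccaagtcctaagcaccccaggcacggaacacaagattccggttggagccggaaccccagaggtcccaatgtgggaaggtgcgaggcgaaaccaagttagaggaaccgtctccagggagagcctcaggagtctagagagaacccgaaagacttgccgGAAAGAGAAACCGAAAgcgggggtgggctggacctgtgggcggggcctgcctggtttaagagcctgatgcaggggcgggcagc
Stat2: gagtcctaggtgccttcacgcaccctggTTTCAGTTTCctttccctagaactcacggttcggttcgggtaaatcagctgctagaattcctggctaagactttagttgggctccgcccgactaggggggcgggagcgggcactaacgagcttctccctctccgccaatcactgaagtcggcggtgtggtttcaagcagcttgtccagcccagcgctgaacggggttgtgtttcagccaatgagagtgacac
Socs3: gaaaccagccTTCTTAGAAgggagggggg

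The element bound by interferon regulatory factors and by the complex of Stat2 with Irf9 was searched as GAAANNGAAA. It was found in Socs1, as 2 overlapping matches on the gene's strand, and in Stat2, as 1 match on the opposite strand, and 3.44% of the 32851 promoters in the table hold it. The gamma-activated site, searched as TTCNNNGAA, reads the same on both strands. Among the 8 promoters it was found in Socs3, and 8.3% of all promoters hold it. The GC box GGGCGG, bound by Sp1, was in 8 of 8 against 35.7% of all promoters, and the TATA box TATAAA in 0 of 8 against 13.6%. The 250 bases before the start held 56.8 to 80.8% G and C in these 8 genes, with a median of 52.4% over all promoters. A match describes the letters only, and the data hold no measurement of binding.

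The treatment question is how the pathway's own genes stood in DCC after interferon-gamma. Of the 9 genes, 5 rose (Ifngr2, Jak1, Stat2, Socs1 and Socs3), 0 fell and 4 were not called at an adjusted p of 0.05. Of all 17069 genes tested, 12.6% were called higher and 8.83% lower. The median log2 fold change was 0.70 over the 9 genes and -0.20 over all genes. Stat2 rose by far the most, followed by the SOCS genes, and the receptor and kinase genes that rose did so by less than 1 log2 unit.

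**Figure D1:**
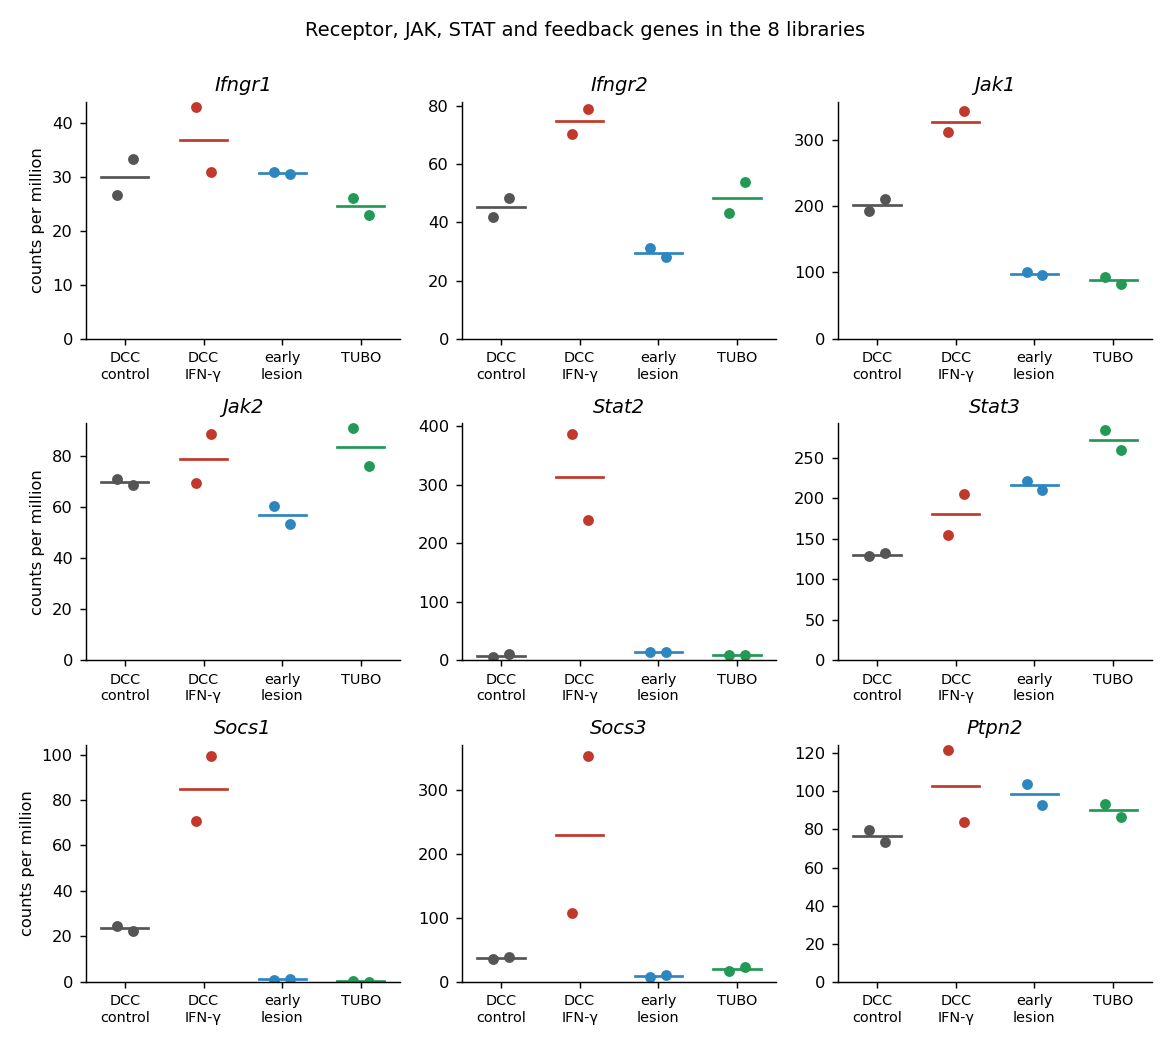
Level of each of the 9 genes in CPM (vertical axes, from 0) in the 2 libraries (points) of each group, with the group mean as a line. Stat2 stands at 386 and 239 CPM in the treated DCC and at 5.36 to 14.2 CPM in the other 6 libraries, and Socs1 is near 0 in the early lesion and TUBO.

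The ligand-binding chain Ifngr1 (chr10:19591949-19610229, plus strand, GRCm38) was at 26.7 and 33.4 CPM in the DCC controls and at 43.0 and 31.0 CPM in the treated DCC. The 2 groups overlap, and the log2 fold change of 0.30 ± 0.21 (SE) was not called (adjusted p = 0.327, edgeR quasi-likelihood test with Benjamini-Hochberg adjustment, as throughout). Its 95% interval ran from -0.17 to 0.77. Ifngr2 (chr16:91547072-91565623, plus strand), the signalling chain, was at 42.0 and 48.5 CPM in the controls and 70.5 and 79.0 CPM after treatment, with no overlap. It rose by 0.72 ± 0.18 log2 units, or 1.65-fold (adjusted p = 0.0156). Without DCC control replicate 1 the adjusted p was 0.124, and without both libraries rich in reads outside genes it was 0.203, within a range of 0.00403 to 0.203 over its alternatives.

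Jak1 (chr4:101152367-101265282, minus strand), the kinase of the Ifngr1 chain, was at 192 and 210 CPM in the controls and at 311 and 344 CPM with interferon-gamma. All treated values lay above all control values, and the rise was 0.70 ± 0.15 log2 units (1.63-fold, adjusted p = 0.00683). Without DCC control replicate 1 its adjusted p was 0.074 and without both libraries rich in reads outside genes 0.141, in a range of 2.23e-05 to 0.141. Jak2 (chr19:29251828-29313080, plus strand), the kinase of the Ifngr2 chain, was at 71.2 and 68.6 CPM in the controls and 69.4 and 88.8 CPM in the treated cells. The groups overlap and Jak2 was not called (0.18 ± 0.17, adjusted p = 0.47, 95% interval -0.20 to 0.56). With upper quartile scaling its log2 fold change was -0.02.

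Stat2 (chr10:128270559-128292849, plus strand) had 5.36 and 10.5 CPM in the DCC controls, from 88 and 264 counts, and 386 and 239 CPM in the treated DCC, from 10523 and 5738 counts. The rise was 5.28 ± 0.36 log2 units, or 39.0-fold with a 95% interval of 21.8 to 69.6 (adjusted p = 4.53e-05). That places Stat2 at rank 128 from the top of the 17069 genes by log2 fold change. The call was kept in every alternative run, with 4.90 to 5.87 log2 units and adjusted p from 2.64e-99 to 0.000449. Stat3 (chr11:100885098-100939540, minus strand) was at 129 and 132 CPM in the controls and 155 and 206 CPM after treatment. The groups do not overlap, but the difference of 0.47 ± 0.16 was not called (adjusted p = 0.0686). DESeq2 called it at an adjusted p of 0.0379, and edgeR did so without treated replicate 1 (0.00605), in a range of 0.00605 to 0.333. Exons of Stat3 share 72 bases with Stat5a on the opposite strand, which is 0.756% of its exon length, and the strand setting of the counting is not known.

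Socs1 (chr16:10782240-10785536, minus strand), which blocks the kinases directly, was at 24.7 and 22.5 CPM in the controls and 70.7 and 99.3 CPM with interferon-gamma. It rose by 1.85 ± 0.42 log2 units, or 3.60-fold (adjusted p = 0.0179). Socs3 (chr11:117966079-117970047, minus strand), best known for stopping signals from the interleukin-6 receptor chain gp130, was at 34.9 and 38.2 CPM in the controls and at 107 and 353 CPM in the treated libraries. It rose by 2.65 ± 0.56 log2 units, or 6.28-fold (adjusted p = 0.0197), with a 3.32-fold gap between the treated replicates, the widest of any of the 9 genes in that group. Its size rests on which treated library is used: it was 1.58 log2 units without treated replicate 2 and 3.27 without treated replicate 1. Both calls were lost without either control library (Socs1 0.122 and 0.176, Socs3 0.142 and 0.213, for replicates 1 and 2), without both libraries rich in reads outside genes (0.142 and 0.129), and, for Socs1, without treated replicate 2 (0.0973). Adjusted p ranged from 5.25e-12 to 0.176 for Socs1 and from 3.03e-32 to 0.213 for Socs3 over the alternatives. Ptpn2 was at 79.9 and 73.2 CPM in the controls and 122 and 84.1 CPM in the treated DCC. Its log2 fold change of 0.43 ± 0.19 was not called (adjusted p = 0.135), though it was called without treated replicate 2 (0.00584), in a range of 0.00584 to 0.593.

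**Figure D2:**
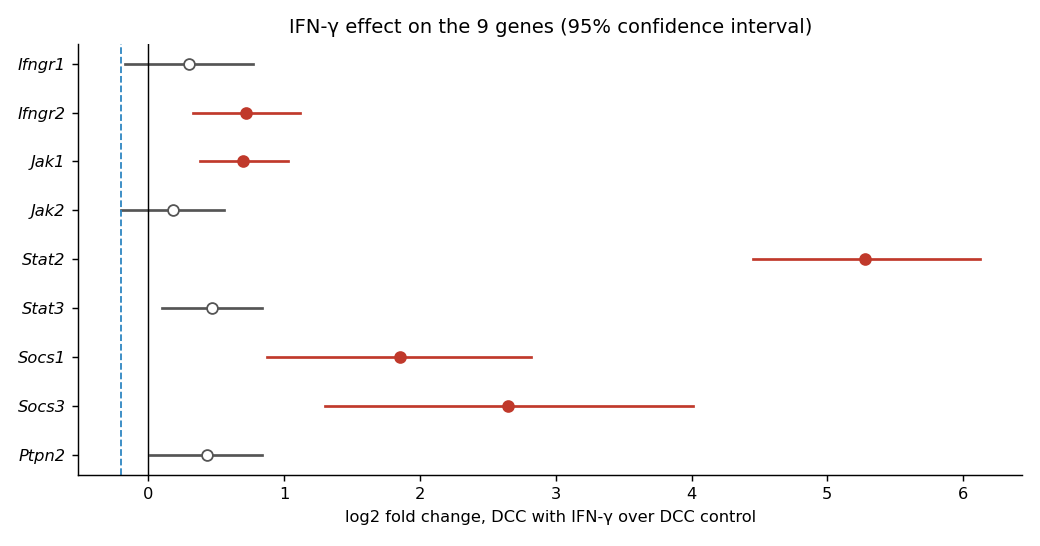
Log2 fold change of each gene, treated DCC over DCC controls (horizontal axis), with its 95% confidence interval; filled red points passed an adjusted p of 0.05 and the dashed line is the median of all genes, -0.20. Stat2 lies at 5.28, and the intervals of Ifngr1 and Jak2 include 0.

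The choice of scaling moved the whole contrast. With upper quartile factors the median log2 fold change of all genes was -0.40 rather than -0.20, and 40.7% of the called genes were higher rather than 58.8%. The 5 genes that rose were called under that scaling too. Stat2 alone of the 9 was called without both libraries rich in reads outside genes.

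The rest of the pathway was taken from 13 lists, 119 entries in all, of which 109 were tested. With interferon-gamma 53 rose and 8 fell, with a median of 0.76, where 12.6% of all genes were called higher and 8.83% lower. With 1 library left out 39 to 54 rose and 6 to 11 fell, and without both libraries rich in reads outside genes 39 of 107 rose and 4 fell, of which 37 and 4 were among those called with all libraries. Of the 6 genes for other STATs and their DNA-binding partner Irf9, 4 rose and 0 fell. Irf9 rose by 3.42 ± 0.24 (12.1 and 11.8 CPM to 158 and 97.5 CPM, adjusted p = 1.14e-05). Stat6, which carries interleukin-4 signals, rose by 0.97 ± 0.15 (adjusted p = 0.0014), and Stat5b, which carries growth hormone and prolactin signals, by 0.61 ± 0.17 (adjusted p = 0.0313). Without both libraries Irf9 and Stat6 were called (0.00131 and 0.0414) and Stat5b was not (0.25). Neither of the other JAK kinases was called: Jak3 was at 15.9 and 18.7 CPM in the controls and 18.0 and 51.8 CPM after treatment (adjusted p = 0.138), and Tyk2 at 24.7 and 13.0 against 20.2 and 23.9 CPM (adjusted p = 0.587).

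Of 6 other SOCS family genes 3 rose: Socs6 by 1.04 ± 0.16 (adjusted p = 0.00142), Socs7 by 0.99 ± 0.18 (0.0036) and Socs5 by 0.62 ± 0.14 (0.0117). Without both libraries Socs6 was called (0.0415), and Socs7 and Socs5 were not (0.0967 and 0.18). Socs2 and Cish, both targets of Stat5, and Socs4 were not called. None of 6 genes of the ubiquitin ligase that the SOCS box recruits was called in either direction, at adjusted p of 0.0693 or more. Of 15 other phosphatases and inhibitors 7 rose and 0 fell. Among those that rose, Pias1, Pias4 and Sh2b3 lost their calls when either control library was left out. Usp18, which displaces Jak1 from the type I interferon receptor, went from 1.03 and 1.35 CPM to 302 and 104 CPM (7.38 ± 0.84, adjusted p = 0.00172). Ptpn6, the phosphatase SHP-1 of blood cells and some epithelia, rose by 3.89 ± 0.28 (1.64 and 2.93 CPM to 33.1 and 36.4 CPM, adjusted p = 1.36e-05), and Ptpn1, the closest relative of Ptpn2, by 1.02 ± 0.19 (adjusted p = 0.00349). Without both libraries Usp18 and Ptpn6 were called (0.0321 and 0.000868) and Ptpn1 was not (0.0543), and Usp18 was not called without DCC control replicate 2 (0.0797). Left-out treated libraries moved Usp18 between 6.43 (replicate 1) and 7.99 (replicate 2). Of the macrophage and leukocyte markers tested, 11 of 15 and 5 of 9 rose in the same libraries. Their part in the rise of Ptpn6 was not tested.

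Target genes of the pathway rose with it. Of 12 genes known as direct targets of interferon-gamma 10 rose, with a median of 5.13: Cxcl10 by 12.03 ± 1.02 log2 units, Gbp2 by 7.34 ± 0.31 and Cxcl9 by 6.59 ± 0.97. The other two, Ciita and Ido1, named after their values were seen, were not called (adjusted p = 0.0612 and 0.896). Ciita, the master switch of MHC class II genes, was at 2.37 and 0.277 CPM in the controls and 7.51 and 8.13 CPM after treatment. Of 12 antiviral genes that depend on Stat2 in type I interferon signalling 12 rose, with a median of 7.14, led by Ifit3 (8.77 ± 0.61), Rsad2 (8.16 ± 1.17) and Mx2 (7.94 ± 0.87). Without both libraries rich in reads outside genes the medians were 4.96 for the direct targets and 7.69 for the antiviral genes. With 1 library left out they ran from 4.96 to 5.58 and from 5.98 to 7.73. The sizes are loosely set by the few control counts: without DCC control replicate 1 Cxcl10 was at 13.81, Cxcl9 at 9.58, Rsad2 at 10.24 and Mx2 at 8.81, and the lowest values with 1 library left out were 11.02 and 5.51 (without DCC control replicate 2) and 6.69 and 6.92 (without treated replicate 1). Ifit3 ran from 8.08 to 9.30, the lower value without treated replicate 1. Calls were lost for Cxcl9 without treated replicate 1, and for Rsad2 and Mx2 without DCC control replicate 2. Mx1 and Oasl1 lost theirs without DCC control replicate 2 and without treated replicate 1, and Oas2 without either control library. Both lists were chosen with earlier results of these libraries known.

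Of the ligands, Ifng itself had 4 counts over both control libraries and 0 in the treated ones, where 3 counts would be 0.11 and 0.125 CPM. Ifnb1, the interferon-beta gene, rose from 0.183 and 0.198 CPM, 8 counts in all, to 15.1 and 3.21 CPM, 490 counts (5.55 ± 1.20, adjusted p = 0.0103). That call was lost without treated replicate 1 (4.04, adjusted p = 0.402), without DCC control replicate 1 (0.0581) and without both libraries rich in reads outside genes (0.0661). Ifna4 had 40 counts in the treated libraries and 6 in the controls and was not called (adjusted p = 0.654), and the other 9 of the 11 interferon genes listed did not pass the filter on low counts. Of 7 receptor chains for other interferons and the interleukin-10 family, 2 rose and 2 fell. Ifnar1, of the type I receptor, fell by 0.62 ± 0.14 (123 and 119 CPM to 79.2 and 78.4 CPM, adjusted p = 0.0102), while Ifnar2 was not called (adjusted p = 0.256). Ifnlr1, of the type III receptor, went from 26 counts to 0 (adjusted p = 0.00242). Il10ra and Il10rb, the interleukin-10 receptor chains, rose by 3.67 ± 0.77 and 0.76 ± 0.22 (adjusted p = 0.0153 and 0.0366). Il10ra is a leukocyte gene, and 5 of 9 leukocyte markers rose in the same libraries. Its call was lost when any 1 of the 4 libraries was left out (up to 0.174). Without both libraries Il10ra and Ifnlr1 were called (0.00577 and 0.0245), and Ifnar1 and Il10rb were not (0.136 and 0.337).

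Of 9 receptors that signal through Stat3, 4 fell and 2 rose. Lifr, the leukaemia inhibitory factor receptor, went from 246 and 253 CPM to 43.7 and 64.9 CPM (-2.20 ± 0.21, adjusted p = 6.89e-05), Il11ra1 changed by -1.73 ± 0.34 (0.00555) and Osmr, of the oncostatin M receptor, by -1.42 ± 0.15 (0.000123). The shared chain Il6st, named in addition after its values were seen, changed by -0.81 ± 0.14 (0.00264). Egfr rose by 2.04 ± 0.23 (0.0002) and the leptin receptor Lepr by 1.75 ± 0.30 (0.00241). Of the ligands, Lif rose by 4.75 ± 0.42 (2.01 and 2.50 CPM to 36.6 and 85.8 CPM, adjusted p = 0.00016) and Il11 by 2.79 ± 0.61 (0.023), with the other 7 tested ligands not called. Lif ran from 4.04 to 5.23 and Il11 from 1.66 to 3.43, in both the lower value without treated replicate 2 and the higher without treated replicate 1, and Il11 was not called without either control library (up to 0.183). Il11 and Il11ra1 were not called without both libraries rich in reads outside genes (0.126 and 0.0553), while the other 6 named here were. The summed level of fibroblast and stroma markers, most of it Col1a1 and Col3a1 in the controls, was lower in the treated libraries, while Pdgfra was higher, and the part of these cells was not tested. Of 16 known Stat3 targets 9 rose and 1 fell: Fos by 4.43 ± 0.93, Pim1 by 3.21 ± 0.34 and Ccnd1 by 2.72 ± 0.21, while Birc5, a cell division gene, changed by -1.44 ± 0.26. Fos was at 2.37 without treated replicate 2 and 5.26 without treated replicate 1, and was not called without either control library (up to 0.26). Without both libraries rich in reads outside genes 5 targets rose, Pim1 and Ccnd1 among them, and 0 fell, with Fos at an adjusted p of 0.134 and Birc5 at 0.0682. Of 7 genes of interferon-gamma receptor trafficking and transcription, Sp1 rose by 0.69 ± 0.16 (0.0122) and Gsk3b changed by -0.73 ± 0.16 (0.0103), and neither was called without both libraries (0.156 and 0.122) or without DCC control replicate 1 (0.102 and 0.0669).

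The treated replicates differed from each other in the genes around Stat2 and Stat3, a pattern noticed after the values were seen. Replicate 1 had more Stat2 (386 against 239 CPM) and replicate 2 more Stat3 (206 against 155 CPM) and Socs3 (353 against 107 CPM). All 12 Stat2-dependent antiviral genes were higher in replicate 1, with a median log2 ratio of 1.32 (CPM + 0.5), and so was Ifnb1. Of the 16 Stat3 targets 14 were higher in replicate 2, with a median of -0.57. Fos was at 32.9 CPM in replicate 1 and 250 CPM in replicate 2, and Cebpd, an acute phase transcription factor, at 54.1 and 289 CPM. Among all 17069 tested genes 7729 (45.3%) were higher in replicate 1 and 7208 in replicate 2, with a median ratio of 0.00. The direct targets of interferon-gamma split 6 to 6. In the DCC controls 9 of the 12 antiviral genes and 5 of the 16 Stat3 targets were higher in replicate 1. Stat2 itself was lower in control replicate 1, at 5.36 against 10.5 CPM. Osteoblast markers summed to 10100 CPM in treated replicate 1 and 25100 CPM in replicate 2, and to 3470 and 3930 CPM in TUBO. Macrophage markers summed to 1630 and 1200 CPM in the treated replicates. The part of either in these differences was not tested, and with 1 library of each kind the split has no replicate check.

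**Figure D3:**
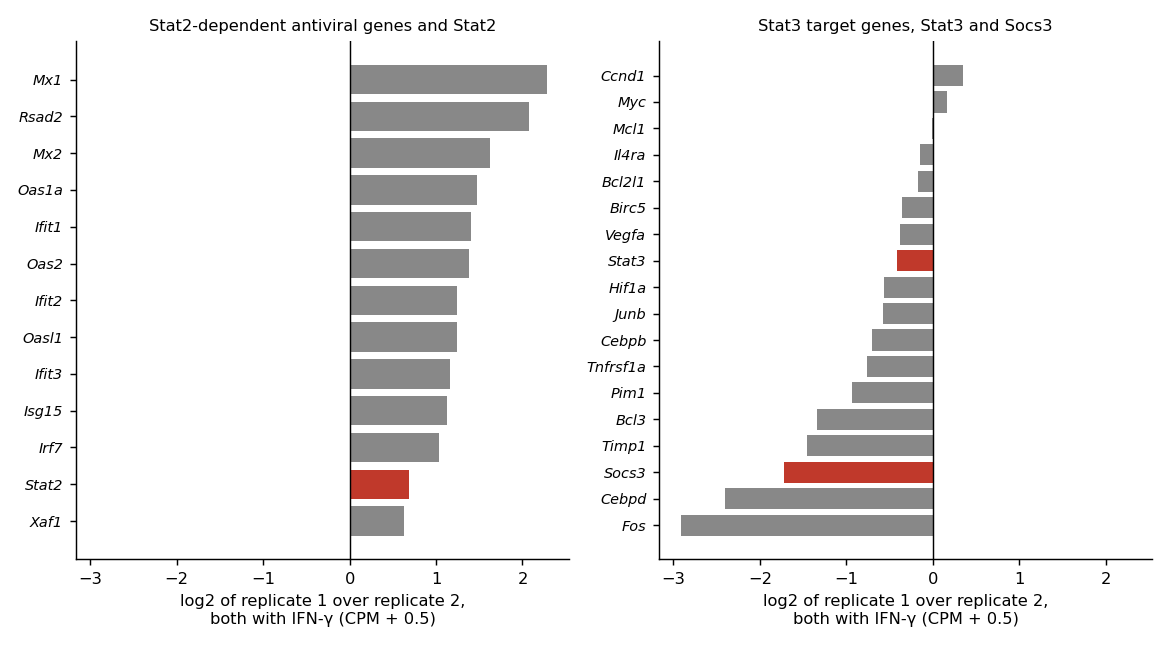
Log2 of replicate 1 over replicate 2 of the treated DCC (horizontal axes, CPM + 0.5) for the 12 Stat2-dependent antiviral genes with Stat2, left, and the 16 Stat3 targets with Stat3 and Socs3, right; members of the 9 genes are red. All bars on the left point to replicate 1, and 14 of the 16 targets on the right point to replicate 2.

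The series also asks how disseminated cells differ from the primary lesion. In the DCC controls 4 of the 9 genes were higher than in the early lesion and 1 was lower, where 19.1% of all genes were called higher and 18.7% lower. Socs1 differed most: 24.7 and 22.5 CPM in the DCC controls against 0.795 and 1.25 CPM in the early lesion, which rest on 25 and 28 counts. The difference was 4.55 ± 0.52 log2 units, or 23.5-fold (95% interval 10.2 to 53.9, adjusted p = 0.000254), and it was called in every alternative run. Socs3 was at 34.9 and 38.2 CPM against 7.12 and 10.4 CPM (2.07 ± 0.57, adjusted p = 0.0293), a call that was lost when any 1 of the 4 libraries was left out (0.0774 to 0.216). Jak1 was higher by 1.04 ± 0.15 (192 and 210 against 100 and 95.7 CPM, adjusted p = 0.000278) and Ifngr2 by 0.61 ± 0.18 (0.0191). The Ifngr2 call was lost when any of 3 of the 4 libraries was left out, with adjusted p of up to 0.14. Stat3 was the gene that was lower, at 129 and 132 CPM against 222 and 210 CPM (-0.72 ± 0.17, adjusted p = 0.00536). Without both libraries rich in reads outside genes only Jak1 and Socs1 were called, and Stat3 had an adjusted p of 0.106. Ifngr1 was within its spread, at a log2 fold change of -0.03 with a 95% interval of -0.50 to 0.44.

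Against TUBO the DCC controls were higher in 2 of the 9 genes and lower in 1, with 22.1% of all genes higher and 19.9% lower. Socs1 had 10 counts in TUBO replicate 1 and 0 in replicate 2, or 0.345 and 0 CPM, where 3 counts are 0.103 and 0.114 CPM. The fitted log2 fold change was 7.00 ± 0.64 (adjusted p = 6.92e-05), with 6.07 to 12.18 when 1 library was left out, so its size is loosely set. Jak1 was higher by 1.19 ± 0.15 (192 and 210 against 93.7 and 82.4 CPM, adjusted p = 9.99e-05), and Stat3 was lower, at 129 and 132 against 285 and 260 CPM (-1.06 ± 0.17, adjusted p = 0.000504). These 3 calls held with any 1 library left out and without both libraries rich in reads outside genes (Socs1 0.00109, Jak1 0.00259 and Stat3 0.0171). The comparisons of DCC controls with the early lesion and with TUBO share the control libraries and are not independent of each other.

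TUBO and the early lesion, both rich in epithelial markers, differed in 2 of the 9 genes. Ifngr2 was higher in TUBO, at 43.1 and 54.1 against 31.1 and 28.0 CPM (0.72 ± 0.18, adjusted p = 0.0144), as was Jak2, at 91.1 and 76.4 against 60.4 and 53.5 CPM (0.56 ± 0.17, adjusted p = 0.0398). With all libraries and the filter used here no gene of the 9 was called lower, and the shares among all genes were 11.4% higher and 12.7% lower. The Jak2 call was lost when any 1 of the 4 libraries was left out (0.0641 to 0.378) and the Ifngr2 call when any of 3 was, with adjusted p of up to 0.129. Without both libraries rich in reads outside genes neither was called (Jak2 0.311 and Ifngr2 0.177). Socs1, at 0.345 and 0 CPM against 0.795 and 1.25 CPM, was at -2.45 ± 0.76 with an adjusted p of 0.0533, just outside the threshold. It was called lower with no filter (1.16e-06), with the stricter filter (0.0457), with DESeq2 (0.00033) and without TUBO replicate 1 (0.000917), and was not in the other alternatives, where its adjusted p reached 0.321. With 1 library left out its log2 fold change ran from -7.67 without TUBO replicate 1 to -1.52 without TUBO replicate 2, so its size is not set by these counts.

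The treated DCC were also set against the 2 untreated tumour sources, with treatment and source differing together. Against the early lesion 6 of the 9 genes were higher (Ifngr2, Jak1, Jak2, Stat2, Socs1 and Socs3) and 0 lower, with 22.7% of all genes higher and 19.2% lower. Against TUBO 6 were higher (Ifngr1, Ifngr2, Jak1, Stat2, Socs1 and Socs3) and Stat3 was lower, with 24.4% of all genes higher and 19.6% lower. Stat2 was higher by 4.47 ± 0.35 and 5.11 ± 0.36 log2 units and Socs3 by 4.72 ± 0.62 and 3.52 ± 0.58. Socs3 again depended on the treated library, at 3.57 and 2.44 without replicate 2 and 5.34 and 4.14 without replicate 1, and was called in each of these fits. The Jak2 call against the early lesion (0.47 ± 0.17, adjusted p = 0.0489) and the Ifngr1 call against TUBO (0.59 ± 0.21, 0.0433) sat close to the threshold. Of the fits that left out 1 library, 1 of 4 kept each of these calls, 2 of 4 kept that of Stat3 (-0.59 ± 0.16, 0.014), and 3 of 4 that of Ifngr2 against TUBO (0.62 ± 0.18, 0.015).

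**Figure D4:**
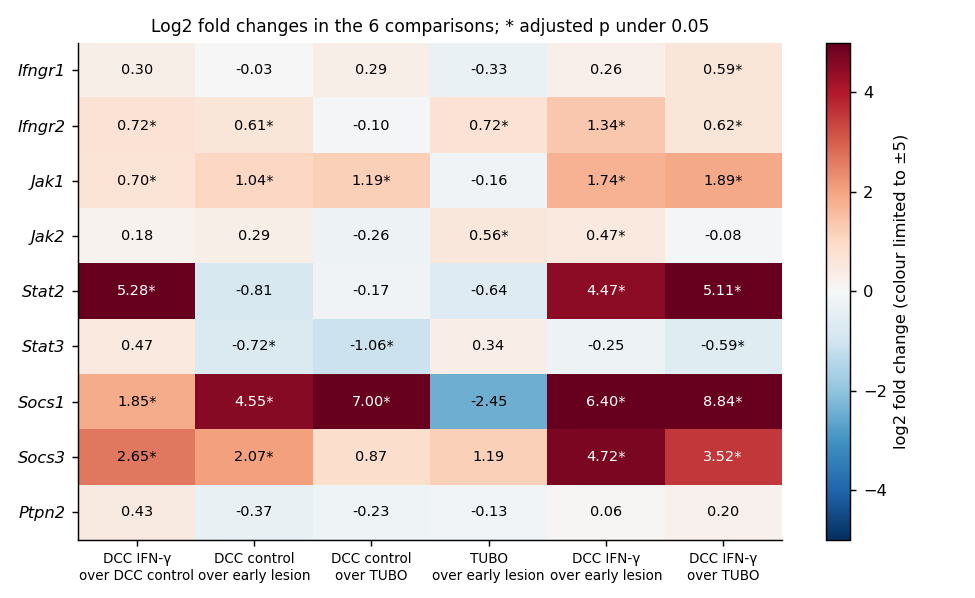
Log2 fold change of each gene (rows) in the 6 comparisons of the 4 groups (columns, first group over the other); an asterisk marks an adjusted p under 0.05 and colours are limited to 5 in size. Socs1 runs from -2.45 in TUBO over the early lesion, which was not called, to 8.84 in treated DCC over TUBO, where 10 TUBO counts set the size, and Ptpn2 was called in none of the 6.

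The 4 groups were also placed in order of level for each gene. Jak1 had its lowest mean in TUBO, and Jak2 its highest, at 83.7 ± 10.3 CPM (SD, n = 2). Jak2 in TUBO overlapped the treated DCC and was not called against them (adjusted p = 0.768) or against the DCC controls (0.234). Jak1 ran from 327 ± 23.8 CPM (SD, n = 2) in the treated DCC to 201 ± 13.4 in the controls and 98.1 ± 3.39 in the early lesion, each step called, and then 88.1 ± 7.99 in TUBO, which was not called (adjusted p = 0.444). Socs1 had the same order of groups, with 85.0 ± 20.2, 23.6 ± 1.54, 1.02 ± 0.321 and 0.172 ± 0.244 CPM. Stat3 ran the opposite way for the untreated groups, with 272 ± 17.8 CPM in TUBO, 216 ± 8.48 in the early lesion and 130 ± 2.71 in the DCC controls, and 181 ± 36.0 in the treated DCC between them. No step between its neighbours was called in an edgeR test with Benjamini-Hochberg adjustment (adjusted p = 0.169, 0.245 and 0.0686). Ifngr1 ran from 37.0 ± 8.49 in the treated DCC to 24.6 ± 2.20 CPM in TUBO and Ptpn2 from 103 ± 26.9 in the treated DCC to 76.6 ± 4.74 CPM in the DCC controls, with no neighbouring step called for either.

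Levels of different genes were compared as CPM per kilobase of exon. In the DCC controls Jak1 was highest at 27.8 ± 1.86, before Ptpn2 at 24.5 ± 1.52, and Stat2 was lowest at 1.33 ± 0.608. With interferon-gamma the order differed between the libraries. Socs3 had the highest mean at 79.5 ± 60.3, but only through replicate 2, where it was at 122. In replicate 1 it was at 36.9, below Stat2 at 65.1, Jak1 at 43.0 and Ptpn2 at 39.0. The means of Stat2 and Jak1 were 52.7 ± 17.5 and 45.3 ± 3.29. Ifngr1 had the lowest mean at 13.0 ± 2.98, though Jak2 was below it in replicate 1 and, with the longest transcript as the length, in the mean (15.7 against 17.5). In the early lesion and TUBO Ptpn2 led (31.6 ± 2.58 and 28.8 ± 1.58), with Stat3 next (22.6 ± 0.89 and 28.6 ± 1.87), and Socs1 was lowest (0.351 ± 0.110 and 0.0593 ± 0.0839). With the longest transcript as the length Stat3 stands at 45.0 in TUBO and Ptpn2 at 33.7, so their order there depends on the gene model. The highest and lowest genes named for the 3 untreated groups were the same in each single library.

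**Figure D5:**
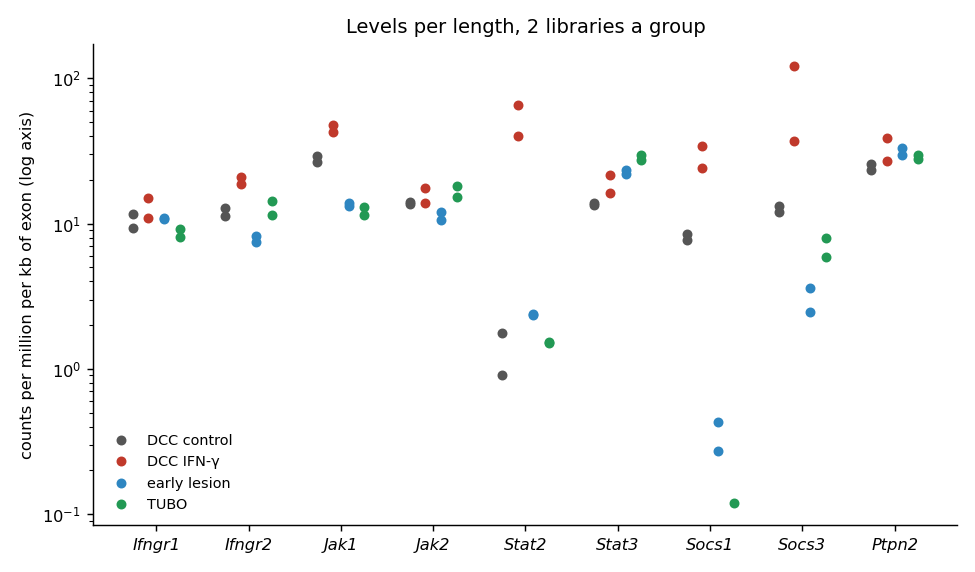
Level of each gene in CPM per kilobase of exon on a log axis, 2 libraries (points) for each of the 4 groups; TUBO replicate 2 has no Socs1 point because it is at 0. Ptpn2 stays between 23.4 and 39.0 in all 8 libraries, while Socs1 runs from 0.119, its lowest value above 0, to 34.1.

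Ratios per kilobase of exon were taken between partners, and their size depends on the gene model. Jak1 over Jak2 was 1.87 and 2.14 in the DCC controls, 3.12 and 2.70 with interferon-gamma, 1.16 and 1.25 in the early lesion and 0.716 and 0.751 in TUBO, with no overlap between groups. Ifngr2 over Ifngr1 was 0.76 and 0.691 in the early lesion and 1.1 to 1.93 in the other 6 libraries. With the longest transcript as the length, Jak1 stood at 18.0 and Jak2 at 16.6 in TUBO. Ifngr2 then stood at 12.2 and Ifngr1 at 14.2 in the DCC controls. Which partner is higher in those groups thus depends on the gene model, while the order of the groups does not. Stat3 over Stat2 was 14.9 and 7.88 in the DCC controls and 0.251 and 0.536 with interferon-gamma, against 9.40 to 19.8 in the early lesion and TUBO. Socs1 over Ifngr1, an inhibitor against the receptor chain, was 0.905 and 0.66 in the DCC controls, 1.61 and 3.14 with treatment, and at most 0.0399 in the early lesion and TUBO.

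Of 6 other SOCS genes 0 were higher and 2 lower in the DCC controls than in the early lesion, and 0 higher and 3 lower than in TUBO, or 2 lower without both libraries rich in reads outside genes. Socs2, induced by Stat5, was at 13.6 and 17.2 CPM in the DCC controls against 342 and 312 CPM in the early lesion and 349 and 340 CPM in TUBO (-4.40 ± 0.36 and -4.48 ± 0.36, adjusted p = 3.33e-05 and 2.85e-05). Cish, another Stat5 target, was lower in the DCC controls too (-2.99 ± 0.41 and -2.24 ± 0.40, adjusted p = 0.000218 and 0.00121). Stat5b itself was at 20.9 and 21.5 CPM against 51.8 and 54.7 and 47.4 and 39.7 CPM (0.000158 and 0.000746). The receptors for Stat3 showed a split as well: Lifr, Il11ra1 and Il6st were higher in the DCC controls than in the early lesion by 3.57 ± 0.22, 2.74 ± 0.36 and 2.32 ± 0.15 log2 units, while Egfr and Il6ra were lower (-3.32 ± 0.24 and -2.03 ± 0.37). Of 109 pathway genes tested, 25 were higher and 25 lower in the DCC controls than in the early lesion (median 0.16), where all genes gave 19.1% and 18.7%, and 24 higher and 28 lower than in TUBO (median 0.14), where all genes gave 22.1% and 19.9%. These shares are near those of all genes. Without both libraries rich in reads outside genes, 16 and 16 of 107 were called against the early lesion and 19 and 17 against TUBO, and the calls named in this paragraph held in both comparisons. The epithelial and stromal markers, and most macrophage and osteoblast markers, separate the same groups, and their part in these differences was not tested.

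Genes whose pattern was most like each of the 9 were sought by Pearson correlation of log2 CPM over the 8 libraries, among 10566 genes with a mean of at least 5 CPM. The libraries fall into 4 groups and differ in depth, so the values are descriptions. Jak1 was closest to Tspan5 (0.9991), Mtap (0.9965) and Rnf11 (0.9932), and Stat3 to Pfkp (0.9957), Itga3 (0.9941) and Capn5 (0.9927). Stat2 was closest to Mov10 (0.9933), an antiviral RNA helicase, and Socs1 to Dhrs9 (0.9952), Ifi204 (0.9924) and Nqo1 (0.9921). Socs3 was closest to Adam15 (0.9876), Stk17b (0.9828) and Dusp1 (0.9789), and Ifngr2 to Pip5k1c (0.9865), Bsdc1 (0.9844) and Cmtm7 (0.9804). For Ifngr1 (Ppil4, 0.9561), Ptpn2 (Nup35, 0.9523) and Jak2 (Wdr45b, 0.9457) the closest gene was less close. Among the 9 themselves the highest correlation was between Jak1 and Socs1 (0.964) and the lowest between Stat3 and Socs1 (-0.75).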

How the data were processed

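RNA from 8 mouse libraries was extracted with a column kit and made into libraries with a Nugen Ovation kit, per the labels' protocols. The deposited values are raw read counts of each gene symbol, in 1 table. Per the submitters' processing notes, the tools were TopHat and HTSeq 0.6.1 and the build mm10. No source used here states the annotation or the strand setting. There are 23478 genes and 5 closing lines, the latter left out of library sizes. Counts were scaled by TMM, filtered by filterByExpr (minimum count 10, 17069 genes kept) and tested with the quasi-likelihood test of edgeR 4.0.16 (R 4.3.3), in 1 model of 4 group means over 8 libraries (4 residual degrees of freedom). Benjamini-Hochberg adjustment ran over all tested genes and 0.05 was the threshold. A depth of 3 counts equals 0.0953 to 0.183 CPM. DESeq2 1.42.0, other scalings and filters, a replicate block, fits of 2 groups alone and left-out libraries were alternatives. The scripts were tested on simulated data. CPM are counts per 1000000 of scaled library size.

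Exon lengths and coordinates come from GENCODE M21 (GRCm38). The members and lists were chosen with earlier results of these data known. Named genes are all 9 members, up to 3 called genes per list and direction with the largest changes, ligands or receptors with few counts, and the 3 most correlated genes per member. Some markers and some genes whose calls were lost were named in addition, after their values were seen. Some genes are counted within lists but not reported here. No promoter of Ptpn2 is shown. No 2 libraries of a group agreed within sampling noise. Chi-square divided by its degrees of freedom was 160 in the treated DCC and 17.4 to 33.5 in the other groups.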

Additional observations from a re-analysis of the deposited data

How the results depend on the processing

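Of the 54 log2 fold changes, all kept direction and side of the threshold with RLE factors. Directions that turned were all of uncalled genes near 0. With upper quartile factors Jak2 was at -0.02 (treated DCC over controls), Ifngr1 at 0.03 (DCC controls over early lesion), Ifngr2 at 0.01 (DCC controls over TUBO) and Ptpn2 at -0.06 (treated DCC over early lesion). Ptpn2 was there at -0.02 when only the 2 groups were fitted and at -0.02 without both libraries rich in reads outside genes. With those left out Ifngr1 was at 0.11 (DCC controls over early lesion) and Stat2 at 0.21 (DCC controls over TUBO). With 1 library left out Ifngr1 ran from -0.21 to 0.12 (DCC controls over early lesion), Ifngr2 from -0.21 to 0.07 and Stat2 from -0.76 to 0.21 (DCC controls over TUBO), Ptpn2 from -0.23 to 0.26 (treated DCC over early lesion), and Jak2 from -0.25 to 0.12 and Ptpn2 from -0.10 to 0.46 (treated DCC over TUBO). The cause was not tested.

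Counts moved by over 1.5 times as follows. For treated DCC over controls, members higher ranged from 1 to 6 with 1 library left out, and all genes from 1193 to 2500 higher and from 827 to 1628 lower, against 2148 and 1508. Without both libraries rich in reads outside genes these were 1, 1017 and 637, and DESeq2 called 2272 lower. For DCC controls over early lesion, members higher ranged from 2 to 3 and lower from 1 to 2 with 1 library left out. Without both they were 2 and 0, with 4112 genes called, and members lower were 2 with no filter, with DESeq2 and with the 2 groups alone. For TUBO over early lesion, members higher ranged from 0 to 1, members lower from 0 to 1 and genes called from 2391 to 3118 with 1 library left out. Without both, 0 members were higher and 1944 genes called. Members lower were 2 with no filter, 1 with the stricter filter, 1 with DESeq2 and 1 with the 2 groups alone, where 4 were higher. Members lower ranged from 0 to 1 for treated DCC over early lesion and from 0 to 1 over TUBO with 1 library left out, and 0 over TUBO with the 2 groups alone.

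The replicate numbers share only a number: the deviations of same-numbered libraries correlated by -0.432 to 0.0957 between groups. With the replicate block 53 of 54 calls kept their side, and the Jak2 call of treated DCC over early lesion was lost (0.48, adjusted p = 0.0563). Leaving libraries out of the pathway lists was chosen after seeing the data. With 2 libraries a group, a missed threshold does not show equal levels.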
